A study of Danio rerio with 6 samples.

Results

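Proteases that act outside the cell or in the lysosome, and the proteins that inhibit them, were followed in whole zebrafish embryos 48 h after fertilization. The embryos had been injected at the one-cell stage with a control morpholino or with setb MO1, a morpholino against the histone chaperone gene setb. Morpholinos are antisense oligonucleotides that block the splicing or the translation of a transcript. Each group had 3 Affymetrix arrays of total RNA. Embryos had been scored as normal-like, mild or moderate. The sources used here do not give the strain, the embryos in a sample, their class, or whether replicates came from separate clutches. P-values therefore measure only how far these samples differ, and that spread may be technical. The setb transcript itself was at log2 levels of 12.51, 12.48 and 12.38 in controls and 12.69, 12.60 and 12.66 with setb MO1. It was thus slightly higher and not lower with setb MO1 than with the control morpholino (0.19 ± 0.07, adjusted p = 0.0465). The sources used here do not say which of these steps setb MO1 blocks, and a block of translation need not lower the transcript, so that this level does not check the knockdown.

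The genes were chosen by symbol among probe sets with a single gene symbol: matrix metalloproteinases (mmp), ADAM and ADAMTS genes, tissue inhibitors of metalloproteinases (timp), cathepsins (cts), serpins, Kunitz-type inhibitors (spint) and matriptases (st14), with ctslb left out. This gave 69 of 11304 measured genes, each with 1 probe set. Of these, 4 are written in capitals in the array's annotation (TIMP4, ADAM22, ADAMTS14 and ADAMTSL5) and were counted as members.

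Matrix metalloproteinases are secreted or membrane-bound zinc enzymes that cut collagens and other matrix proteins, and the TIMP proteins bind their active site. ADAM proteases sit in the membrane and release the outer part of other membrane proteins, while ADAMTS proteases are secreted and process matrix proteins. Cathepsins degrade proteins in the lysosome, mostly as cysteine proteases. Serpins inhibit serine proteases by a trap that consumes the inhibitor, among them those of blood clotting and complement, although some serpins inhibit nothing. Matriptase is a serine protease of epithelial membranes, and the spint1 proteins are its Kunitz-type inhibitors.

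More of these genes were higher than lower in setb MO1 embryos. Of the 69 genes, 36 rose, 11 fell and 22 did not pass (limma, Benjamini-Hochberg adjusted p under 0.05 over all genes). The shift was not shared evenly: 10 of 12 cathepsin genes, all 3 TIMP genes and 4 of 5 spint and st14 genes rose and none of these fell, whereas metalloproteinases and ADAM genes went both ways. Among all 11304 genes, 44.7% were called, 23.9% as higher and 20.8% as lower, and the members' shares were 52.2% and 15.9%. The median log2 change was 0.31 for the members and 0.02 for all genes. At least 2-fold, 7 members were higher and 2 lower, against 1.06% and 1.80% of all genes and 2.87% in either direction. At least 1.5-fold, 23 members were called, against 13.3% of all genes. The groups did not overlap in 39 members with higher and 12 with lower setb MO1 values, against 30.6% and 27.4% of all genes and 58.0% in either direction. Every probe set of the table reached 8.45 in at least 1 array, and the mean of 13 members in controls and of 7 with setb MO1 lay below that level. Among called members of at least 1.5-fold, all control values of mmp9, ctsll, ctss2.1, adam8b, adam9b and adam28 and all setb MO1 values of mmp24 did. So did all control values of mmp13a, which did not pass. Such values may be near background, which would understate these folds. These genes, and likewise adamts18 and serpinb1l3 (higher) and adamts10 (lower), reached 8.45 only in the group where they were higher. The same was true of adamts9 and serpina1, which did not pass. Where such a gene was kept by its highest array, the filter favoured its direction. Its call and any lack of overlap are then no independent evidence of a change. The same holds for genes of the other lists and for the tissue markers.

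**Figure D1:**
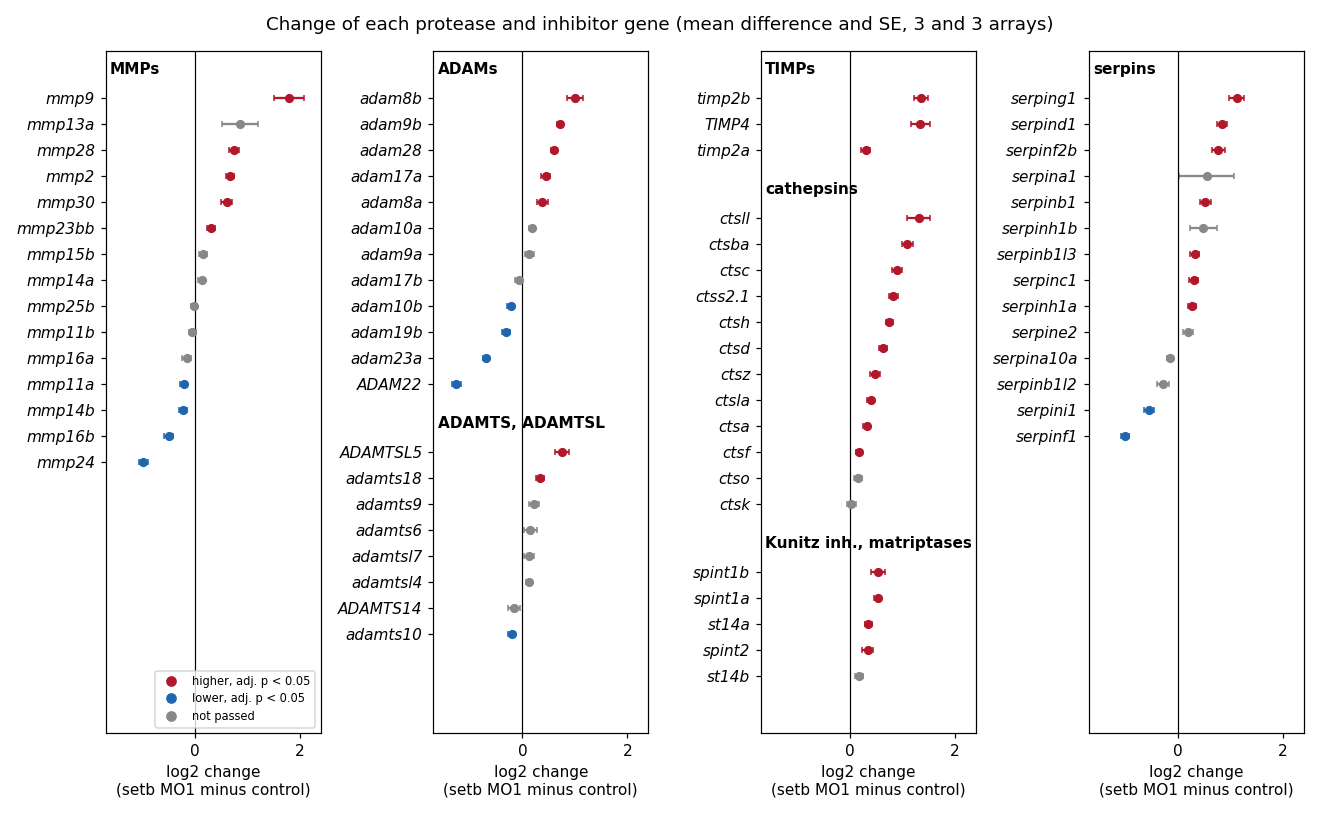
Log2 change of all 69 genes, setb MO1 minus control, on the horizontal axis, with genes on the vertical axis grouped by class. Points are differences of the means of 3 and 3 arrays, bars are standard errors, and colours mark genes that were higher, lower or did not pass. The changes run from −1.26 for ADAM22 to 1.79 for mmp9, and no cathepsin, TIMP, spint or st14 gene lies below 0.

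**Figure D2:**
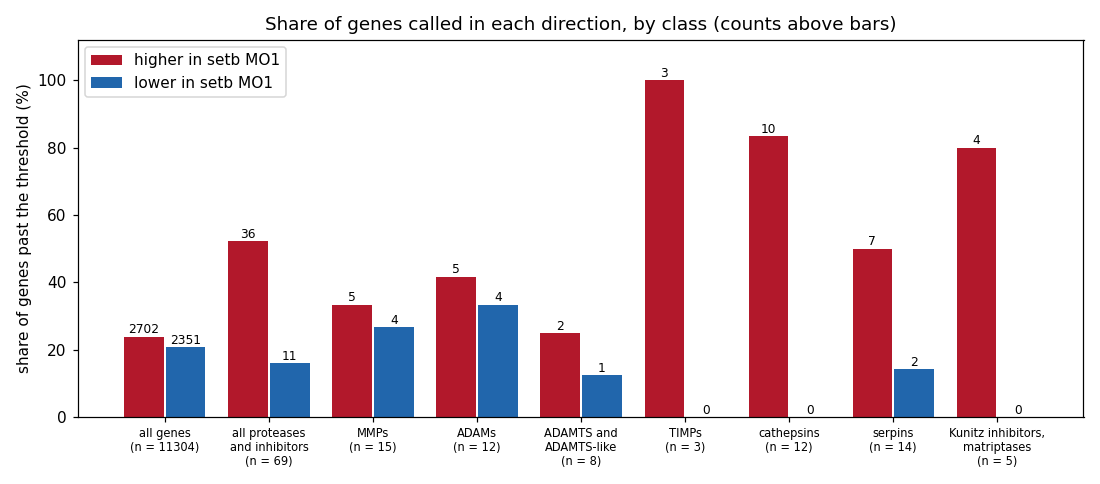
Share of genes past the threshold in percent (vertical axis) in each class and among all genes, higher and lower in setb MO1 embryos, with counts above the bars. The bars for cathepsins reach 83.3% higher and 0 lower, beside 23.9% and 20.8% of all genes.

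Of 12 cathepsin genes, 10 rose and 2 did not pass. The cysteine protease gene ctsba, one of the cathepsin B genes, had log2 levels of 9.36, 9.46 and 9.59 in controls and 10.45, 10.48 and 10.76 with setb MO1. All its setb MO1 values were higher than the control values, a change of 1.09 ± 0.11 (SE, n = 3 and 3, 2.13-fold, adjusted p = 0.000342). Control values of ctsc, whose product activates the serine proteases of leukocyte granules, were 10.40, 10.45 and 10.48, and its setb MO1 values were 11.46, 11.14 and 11.43. Again the groups were apart, and the change was 0.90 ± 0.10 (adjusted p = 0.000471).

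For ctsh, an aminopeptidase among the cathepsins, the arrays gave 8.81, 8.72 and 8.78 in controls and 9.50, 9.47 and 9.59 with setb MO1, a change of 0.75 ± 0.06 with little spread in either group. Cathepsin S, known from antigen-presenting cells, is represented by ctss2.1, with 7.90, 8.03 and 8.16 in controls and 8.78, 8.95 and 8.82 with setb MO1 (0.82 ± 0.09). The aspartic protease gene ctsd was at 10.93, 10.87 and 10.94 against 11.58, 11.65 and 11.40, and rose by 0.63 ± 0.08. Each of these 3 genes was higher in every setb MO1 array than in any control array. For ctss2.1, which reached 8.45 only with setb MO1, the filter may have favoured this separation.

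The cathepsin L-like gene ctsll had the largest change of the class, 1.31 ± 0.22 (2.48-fold, adjusted p = 0.00302). Its control values were 8.10, 8.07 and 7.91 and its setb MO1 values 9.11, 8.999 and 9.91, with replicate 3 well above the other two. A second cathepsin L gene, ctsla, changed by 0.39 ± 0.08, from 11.90, 11.78 and 11.76 to 12.29, 12.22 and 12.10. Cathepsin L genes are close copies, so that their probe sets may share signal. All control values of ctsll lay below 8.45, so that the filter may have favoured its increase.

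Smaller increases were found for ctsz (0.47 ± 0.10) and for ctsa (0.32 ± 0.07), a serine carboxypeptidase that also protects other lysosomal enzymes, with control values of 11.05, 11.05 and 10.96 and setb MO1 values of 11.40, 11.29 and 11.32. The increase of ctsf (0.17 ± 0.06, adjusted p = 0.0463) was lost when any single array was left out (adjusted p up to 0.152). Of the 2 cathepsins that did not pass, ctso changed by 0.15 ± 0.07. The other, ctsk, is the gene of the collagen-cutting cathepsin of osteoclasts, and lay at 9.23, 9.11 and 8.99 in controls and 9.04, 9.22 and 9.13 with setb MO1 (0.02 ± 0.09, adjusted p = 0.854). In the RefSeq annotation of assembly GRCz12tu, ctsk and ctss2.1 are neighbours with 0 protein-coding genes between them.

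Other lysosomal genes went both ways. Of 47 measured genes of a list of 71 lysosomal enzymes, membrane proteins, sorting receptors and regulators, 19 rose and 5 fell, with a median of 0.09. Without control replicate 2, these counts were 13 and 3. The saposin precursor gene psap (0.47 ± 0.06), the galactocerebrosidase gene galca (0.70 ± 0.09) and tfe3a, a transcription factor of lysosomal biogenesis (0.53 ± 0.07), had the smallest p-values among those that rose. Those that fell were led by cln6a (−0.25 ± 0.06), the channel gene mcoln1b (−0.26 ± 0.06) and the thioesterase gene ppt1 (−0.39 ± 0.09). Both cln6a and mcoln1b reached 8.45 only in controls. Among those that rose, manba, man2b2 and naglu reached it only with setb MO1. The filter may have favoured these directions. At a threshold of 0.01, 10 lysosomal genes rose and none fell, while 1586 of all 11304 genes rose and 1454 fell. Thus the lysosomal genes outside the cathepsins were called higher in 40.4% and lower in 10.6%, against 23.9% and 20.8% of all genes. The legumain gene lgmn, a lysosomal cysteine protease outside the cathepsin family, rose by 0.38 ± 0.07 (named after its value was seen).

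Leukocytes are a known source of several cathepsins, of adam8 and of mmp9. Of 8 measured leukocyte markers of 16 listed, none rose, 4 fell and 4 did not pass. These were 0 higher and 50% lower, against 23.9% and 20.8% of all genes. Their summed linear intensity was 6140 to 6669 in control and 4281 to 5027 in setb MO1 arrays. The lysozyme gene lyz (−1.18 ± 0.08) and the myeloperoxidase gene mpx (−0.52 ± 0.12) had the smallest p-values. Here and in the other lists, a summed intensity is weighted to the brightest genes. The leukocyte sum mostly follows lyz (mean log2 11.55 in controls and 10.37 with setb MO1) and does not describe the markers as a set. Named after their values were seen, the macrophage gene mpeg1.1 (0.31 ± 0.13, adjusted p = 0.0901) and the inflammatory cytokine gene il1b (1.03 ± 0.37, adjusted p = 0.0541) did not pass. Leaving out any single array other than setb MO1 replicate 3 left 2 markers that fell. Without control replicate 1, 2 markers rose, and without setb MO1 replicate 1, 1 rose. In whole embryos, fewer cells of a type and less RNA per cell cannot be told apart, and the part of leukocytes in the protease results was not tested.

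The gelatinase gene mmp9, a metalloproteinase induced in wounds and inflammation, had the largest increase of all members. Controls gave 8.34, 8.16 and 8.39 and setb MO1 embryos 9.34, 10.48 and 10.44. The lowest setb MO1 value, that of replicate 1, still lay above all control values, and the change was 1.79 ± 0.29 (3.46-fold, adjusted p = 0.00229). All control values of mmp9 lay below 8.45, so that the filter may have favoured this separation. The interstitial collagenase gene mmp13a followed the same order among the setb MO1 arrays, with 8.22, 9.74 and 9.07, against 8.32, 7.95 and 8.17 in controls. Its replicate 1 fell within the control range, and the change of 0.87 ± 0.34 did not pass (adjusted p = 0.0736). It passed without setb MO1 replicate 1 (1.26, adjusted p = 0.0059).

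The gene mmp30, separated from mmp13a by 1 protein-coding gene in GRCz12tu, was at 10.61, 10.51 and 10.63 in controls and 10.99, 11.24 and 11.34 with setb MO1, again with replicate 1 lowest of its group, and rose by 0.61 ± 0.10. The second gelatinase gene, mmp2, was at 11.60, 11.67 and 11.80 against 12.32, 12.37 and 12.40, an increase of 0.67 ± 0.07 (1.60-fold). Epilysin, a metalloproteinase known from epithelia, is encoded by mmp28, whose control values of 8.35, 8.50 and 8.65 and setb MO1 values of 9.31, 9.28 and 9.16 gave an increase of 0.75 ± 0.09. The remaining increase was that of mmp23bb (0.31 ± 0.07). All these 5 genes encode secreted enzymes apart from mmp23bb, whose product starts out anchored in the membrane.

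None of the membrane-type metalloproteinases rose. Among them mmp24, known in mammals from neurons, fell most, with 9.12, 9.26 and 9.04 in controls and 8.26, 8.11 and 8.09 with setb MO1 (−0.98 ± 0.08, 1.98-fold lower, adjusted p = 0.000249). All setb MO1 values of mmp24 lay below 8.45, so that the filter may have favoured its decrease. The arrays of mmp16b gave 8.92, 8.96 and 8.82 against 8.54, 8.29 and 8.37, a change of −0.50 ± 0.08, and the groups were apart. The gene mmp14b fell by 0.22 on the log2 scale (SE 0.07, adjusted p = 0.0397). Its mammalian counterpart activates the MMP2 proenzyme. The same was found for mmp11a, a secreted stromelysin (−0.21 ± 0.06, adjusted p = 0.0277). Both small decreases were lost without single arrays (adjusted p up to 0.139 and 0.0921) and under a replicate block (0.0749 and 0.0662). The members of the class that did not pass were mmp15b (0.16 ± 0.07), mmp14a (0.13 ± 0.07), mmp16a (−0.15 ± 0.09), mmp11b (−0.05 ± 0.06) and mmp25b (−0.02 ± 0.06), beside mmp13a. The count of metalloproteinases that fell was 4 with all arrays and 2 without control replicate 2 or 3 or setb MO1 replicate 2 or 3. With all arrays 33.3% of the class rose and 26.7% fell, against 23.9% and 20.8% of all genes.

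**Figure D3:**
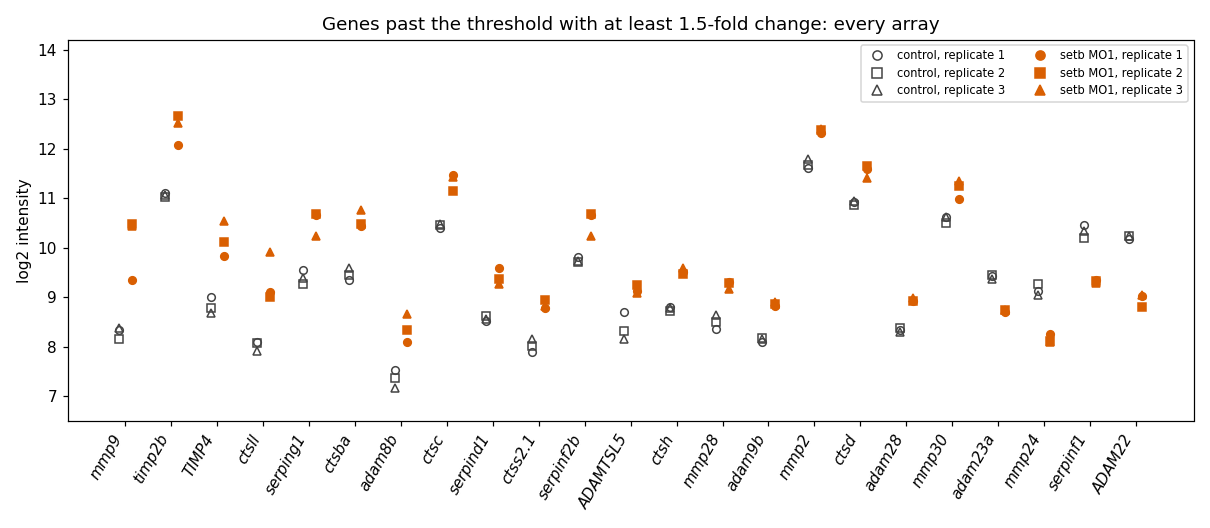
Log2 intensity (vertical axis) in every array for the 23 genes past the threshold with at least 1.5-fold change, ordered by change from mmp9 on the left to ADAM22 on the right. Open symbols are control and filled symbols setb MO1 arrays, with a symbol shape for each replicate number, which is not taken to pair the samples. The groups are apart in all 23 genes, which follows largely from their choice by adjusted p and fold and is no further evidence. Of these, mmp9, ctsll, ctss2.1, adam8b, adam9b, adam28 and mmp24 reached 8.45 only in the group where they were higher. Values of setb MO1 replicate 1 lie below replicates 2 and 3 for mmp9, timp2b, TIMP4 and adam8b, among other genes. Levels of different genes come from different probes and are not comparable.

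All 3 measured TIMP genes rose. The gene timp2b was at 11.11, 11.02 and 11.06 in controls and at 12.07, 12.65 and 12.52 with setb MO1. This change of 1.35 ± 0.14 (2.55-fold, adjusted p = 0.000458) was the largest after that of mmp9. TIMP4 was at 9.02, 8.78 and 8.69 against 9.84, 10.11 and 10.55, and rose by 1.34 ± 0.18 (2.53-fold). The copy timp2a changed far less, from 9.71, 9.46 and 9.48 to 9.80, 9.92 and 9.84 (0.30 ± 0.08, adjusted p = 0.0232), a call that was lost in 4 of the 6 fits without a single array (adjusted p up to 0.0933). In mammals TIMP2 both inhibits metalloproteinases and, together with MMP14, takes part in the activation of the MMP2 proenzyme. On these arrays mmp2 and timp2b were higher and mmp14b was lower in setb MO1 embryos. The mmp14b call was lost without some single arrays, and the other copy, mmp14a, did not pass (0.13 ± 0.07).

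The inhibitors outside these families were mixed. Of 17 measured genes of a list of 25 further inhibitors, 6 rose and 3 fell, with a median of 0.13. These were 35.3% and 17.6%, against 23.9% and 20.8% of all genes. The inter-alpha-trypsin inhibitor heavy chain genes itih5 (0.68 ± 0.09) and itih2 (0.43 ± 0.07) and the cystatin gene cst3 (0.46 ± 0.08), which encodes an inhibitor of cysteine cathepsins, led the increases. The decreases were those of wfikkn2a (−1.60 ± 0.17) and of the testican genes spock2 (−0.89 ± 0.08) and spock3 (−0.23 ± 0.07). The membrane-anchored metalloproteinase inhibitor gene reck, named after its value was seen, did not pass (−0.09 ± 0.08). Of these inhibitors 3 rose without control replicate 2.

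Among the 12 ADAM genes 5 rose and 4 fell (41.7% and 33.3%, against 23.9% and 20.8% of all genes). The genes that fell most were ADAM22 and adam23a, whose mammalian products are receptors of neurons without protease activity. ADAM22 was at 10.18, 10.23 and 10.24 in controls and 9.03, 8.80 and 9.04 with setb MO1, a change of −1.26 ± 0.08 (2.39-fold lower, adjusted p = 0.000165) that was the largest decrease of all members. Values of adam23a were 9.43, 9.46 and 9.38 against 8.71, 8.74 and 8.75 (−0.69 ± 0.06, adjusted p = 0.000257). The decreases of adam19b (−0.32 ± 0.08) and of adam10b, a copy of the Notch sheddase gene (−0.23 ± 0.06), were smaller. They were lost without setb MO1 replicate 2 (adjusted p = 0.0539 and 0.0641), and that of adam10b also without setb MO1 replicate 1 (0.0538).

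Of the genes that rose, adam8b had the largest change, from 7.53, 7.36 and 7.18 to 8.09, 8.34 and 8.66 (1.01 ± 0.15, 2.01-fold, adjusted p = 0.00185). The metalloprotease gene adam9b was at 8.10, 8.18 and 8.15 against 8.83, 8.87 and 8.90, and rose by 0.72 ± 0.06. For adam28 the values were 8.34, 8.38 and 8.30 against 8.93, 8.92 and 8.99 (0.61 ± 0.06). In both genes the replicates of a group differed by at most 0.08 on the log2 scale. All control values of adam8b, adam9b and adam28 lay below 8.45, so that the filter may have favoured these increases. The small spread of such values is then no independent evidence. The gene adam17a, a copy of the convertase gene of tumour necrosis factor, rose by 0.44 ± 0.09, and adam8a by 0.38 ± 0.10. Without control replicate 2, adam8a no longer passed (adjusted p = 0.0628). The genes adam9a (0.13 ± 0.08) and adam17b (−0.07 ± 0.07) did not pass. Nor did adam10a (0.18 ± 0.06, adjusted p = 0.0505), whose groups did not overlap. It lay near the threshold and passed under several other settings, among them equal array medians (0.0491), a trended prior (0.0213) and the fit without control replicate 1 (0.0306).

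Of 8 ADAMTS and ADAMTS-like genes, adamts18 and ADAMTSL5 rose and adamts10 fell. The share called was 37.5%, against 44.7% of all genes. ADAMTSL5, whose family lacks the protease domain, had control values of 8.70, 8.32 and 8.17 and setb MO1 values of 9.13, 9.25 and 9.08 (0.76 ± 0.13, 1.69-fold). For adamts18 the arrays gave 8.40, 8.39 and 8.37 against 8.73, 8.58 and 8.84 (0.33 ± 0.08). The microfibril-associated protease gene adamts10 was at 8.36, 8.45 and 8.34 against 8.25, 8.10 and 8.18 (−0.21 ± 0.07, adjusted p = 0.0460). This call was lost without any single array (adjusted p up to 0.164) and under a replicate block (0.0907). Both adamts18 and adamts10 reached 8.45 only in the group where they were higher, so that the filter may have favoured their directions. The 5 others, adamts9, adamts6, ADAMTS14, adamtsl4 and adamtsl7, changed by −0.16 to 0.22 and did not pass. Of adamtsl4 the values were 9.43, 9.48 and 9.50 against 9.61, 9.60 and 9.57 (0.12 ± 0.06, adjusted p = 0.129), so that its groups did not overlap although the gene did not pass.

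Several zebrafish genes of these families are kept as 2 copies, a and b, and 11 such pairs were measured. The change of the a copy minus that of the b copy was tested as a change of their ratio within each array, fitted over all 1252 a and b pairs of the table, of which 45.9% were called. The copies changed differently in 7 of the 11 pairs. The widest gap was that of timp2, where the a copy changed less by 1.05 ± 0.13 (adjusted p = 0.000551). The ratio of timp2a to timp2b, as a log2 value, was −1.40, −1.56 and −1.58 in controls and −2.27, −2.73 and −2.68 with setb MO1. In adam8 (−0.63 ± 0.11) and adam9 (−0.59 ± 0.08) it was also the b copy that rose more, both adjusted p at most 0.00317. In these 2 pairs the b copy reached 8.45 only with setb MO1, and the a copy in every array. The filter may have favoured these 2 differences, which are then no independent evidence.

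In adam17 the a copy rose and the b copy did not pass, with a difference of 0.51 ± 0.09 (adjusted p = 0.00334). The ratio of the adam10 copies changed by 0.40 ± 0.07 (adjusted p = 0.00319), with adam10b lower and adam10a not past the threshold. The membrane-type pairs mmp14 (0.35 ± 0.11, adjusted p = 0.0289) and mmp16 (0.35 ± 0.09, adjusted p = 0.0141) differed in the same direction, with the b copy lower. Without control replicate 2 these 2 pairs no longer passed (adjusted p = 0.112 and 0.0626), and mmp14 also failed without setb MO1 replicate 2 (0.0873) or 3 (0.0892). No difference was called for spint1 (−0.01, 95% interval −0.37 to 0.34), serpinh1 (−0.21, −0.74 to 0.33), st14 (0.18, −0.03 to 0.39) or mmp11 (−0.17, −0.34 to 0.0076). The intervals of mmp11, spint1 and st14 do not reach, in size, the point estimates of adam10, adam17, adam8, adam9 and timp2. Those estimates have errors too. The intervals of adam10 (0.23 to 0.57), adam17 (0.29 to 0.73) and adam8 (−0.89 to −0.36) overlap some of them in size. Whether pairs differ from each other was not tested.

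**Figure D4:**
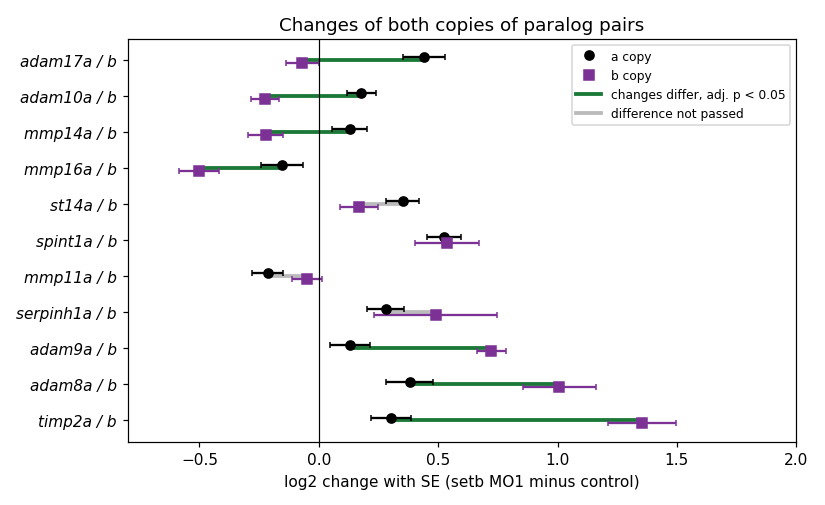
Log2 change of both copies of the 11 a and b pairs (horizontal axis, setb MO1 minus control, with standard errors). Circles are a copies, squares b copies, and a green line marks the 7 pairs whose copies changed differently. The timp2 pair spans 0.30 to 1.35, while the spint1 copies lie at 0.52 and 0.54.

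Of 14 serpin genes, 7 rose, 2 fell and 5 did not pass (50% higher and 14.3% lower, against 23.9% and 20.8% of all genes). Of those that rose, 4 encode plasma inhibitors. The C1 inhibitor gene serping1, which limits complement and kallikrein, was at 9.56, 9.26 and 9.40 in controls and 10.66, 10.69 and 10.24 with setb MO1, an increase of 1.12 ± 0.14 (2.18-fold, adjusted p = 0.000761). Heparin cofactor II, a thrombin inhibitor, is encoded by serpind1, at 8.53, 8.62 and 8.56 against 9.60, 9.38 and 9.28 (0.85 ± 0.09, 1.80-fold). The plasmin inhibitor gene serpinf2b was at 9.82, 9.71 and 9.74 against 10.67, 10.68 and 10.25 (0.77 ± 0.12). In serping1 and serpinf2b replicate 3 was the lowest setb MO1 array, yet above all control arrays.

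The antithrombin gene serpinc1 was at 10.47, 10.49 and 10.46 against 10.84, 10.86 and 10.63 (0.30 ± 0.08, adjusted p = 0.0172), and its call was lost in 3 of the 6 fits without an array (adjusted p up to 0.0643). The gene serpina10a, a relative of the factor X inhibitor, was at 9.98, 9.96 and 9.90 against 9.77, 9.82 and 9.82 and did not pass (−0.15 ± 0.06, adjusted p = 0.0832). The antitrypsin gene serpina1 was at 7.43, 7.63 and 7.26 against 7.59, 9.34 and 7.05. Only setb MO1 replicate 2 stood above the controls, and the change of 0.55 ± 0.52 was not called. Without that array the sign turned (−0.12, adjusted p = 0.630). Values of serpina1 reached 8.45 only in that array, so that the filter may have favoured an increase. With probe sets of several symbols kept, one shared with serpina1l and apom stood for the gene and passed as higher (0.33, adjusted p = 0.0188). Plasma serpins are mainly products of the liver. Of 11 measured liver and yolk layer markers of 18 listed, 2 rose, 2 fell and 7 did not pass. These were 18.2% higher and 18.2% lower, against 23.9% and 20.8% of all genes. Their summed linear intensity was 45278 to 46918 in control and 41851.5 to 45746 in setb MO1 arrays. The ceruloplasmin gene cp (2.30-fold higher) and the complement gene c3a.1 (−0.76 ± 0.12) had the smallest p-values. The part of the liver in the serpin results was not tested.

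The 2 serpins that fell are known from the nervous system and the eye. The gene serpinf1, which encodes the pigment epithelium-derived factor, a serpin without inhibitory activity, was at 10.47, 10.20 and 10.33 in controls and 9.35, 9.34 and 9.29 with setb MO1 (−1.01 ± 0.08, 2.01-fold lower, adjusted p = 0.000225). Neuroserpin, an inhibitor of tissue plasminogen activator released by neurons, is encoded by serpini1, whose values were 9.33, 9.06 and 9.28 against 8.59, 8.81 and 8.64 (−0.54 ± 0.10, adjusted p = 0.00361). The gene of its target, plat, was itself higher (0.47 ± 0.09, named after its value was seen). Values of plat reached 8.45 only with setb MO1, so that the filter may have favoured this direction. Protease nexin 1, a further inhibitor of plasminogen activators and thrombin, is encoded by serpine2, at 11.59, 11.37 and 11.32 against 11.55, 11.60 and 11.72 (0.20 ± 0.09, adjusted p = 0.117).

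Neuronal markers moved with mmp24, ADAM22, adam23a and serpini1. Of 8 measured neuronal markers of 9 listed, 7 fell and none rose, with a median of −0.59 and a summed linear intensity of 17508 to 18802.5 in control and 11362 to 11714 in setb MO1 arrays. Of these markers 87.5% were called lower and 0 higher, against 20.8% and 23.9% of all genes. The smallest p-values were those of neurod1 (−1.45 ± 0.10) and stmn1b (−1.25 ± 0.10). Both neurod1 and snap25b reached 8.45 only in controls, as did mmp24, so that the filter may have favoured their decreases. The other markers that fell reached 8.45 in both groups. The part of neuronal content in the 4 decreases was not tested.

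The remaining serpins were clade B genes, which act inside cells, and the collagen chaperone genes of clade H. The elastase inhibitor gene serpinb1 was at 10.14, 9.97 and 9.87 against 10.37, 10.69 and 10.52 and rose by 0.53 ± 0.11. Its relative serpinb1l3 was at 8.40, 8.26 and 8.40 against 8.60, 8.81 and 8.62 (0.32 ± 0.08, adjusted p = 0.0161), a call lost without control replicate 2 (adjusted p = 0.0696) or setb MO1 replicate 2 (0.0521) and when a probe set shared with rmdn1 was used (0.123). The gene serpinb1l2, with 1 protein-coding gene between it and serpinb1 in GRCz12tu, did not pass (−0.28 ± 0.12). These clade B genes are close copies whose probe sets may share signal. Values of serpinb1l3 reached 8.45 only with setb MO1, so that the filter may have favoured its increase.

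For serpinh1a, which encodes a collagen chaperone of the endoplasmic reticulum, the values were 11.61, 11.56 and 11.66 against 11.76, 11.93 and 11.98 (0.28 ± 0.08, adjusted p = 0.0215), lost in 3 of the 6 fits without an array (adjusted p up to 0.0867). Its copy serpinh1b ranged from 11.02, 11.64 and 12.09 in controls to 11.89, 11.97 and 12.35 with setb MO1. The controls spanned 1.07 on the log2 scale and overlapped the other group, and the change of 0.49 ± 0.26 did not pass (adjusted p = 0.161). It passed without control replicate 3 (0.74, adjusted p = 0.0289) and under a replicate block (adjusted p = 0.0248). Of the 7 serpins that rose with all arrays, the count was 4 without control replicate 2 or setb MO1 replicate 2.

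Matriptase and its inhibitors were higher together. The inhibitor gene spint1a, whose loss in zebrafish is known to cause epidermal inflammation that depends on matriptase, was at 11.27, 11.14 and 11.17 in controls and 11.64, 11.78 and 11.73 with setb MO1 (0.52 ± 0.07, adjusted p = 0.00107). The protease gene st14a was at 10.91, 11.02 and 11.01 against 11.26, 11.34 and 11.39 (0.35 ± 0.07, adjusted p = 0.00535). In both genes all setb MO1 arrays lay above all control arrays.

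The copy spint1b was at 8.69, 8.90 and 9.26 against 9.49, 9.51 and 9.46, so that its controls spread over 0.56 while the setb MO1 arrays lay within 0.05, and rose by 0.54 ± 0.13. Without control replicate 2 it no longer passed (adjusted p = 0.0580). The related inhibitor gene spint2 rose by 0.34 ± 0.10, a call lost in 5 of the 6 fits without an array (adjusted p up to 0.0889). The second matriptase gene, st14b, was at 8.78, 8.83 and 8.98 against 9.02, 9.12 and 8.96 (0.17 ± 0.08) and did not pass. Without control replicate 2, 2 of the 5 spint and st14 genes rose. Most measured epidermal markers moved the same way. Of 22 measured epidermis and periderm markers of 26 listed, 14 rose, none fell and 8 did not pass. These were 63.6% higher and 0 lower, against 23.9% and 20.8% of all genes. The increases were led by cdh1 (0.57 ± 0.06) and pkp3a (0.64 ± 0.07). The summed linear intensity was 78183 to 79463 in control and 92945 to 93592 in setb MO1 arrays. Those that did not pass included krt4 (0.06 ± 0.06), krt5 (−0.15 ± 0.09) and tp63 (0.12 ± 0.07). So did krt92 (−0.15 ± 0.06), whose groups did not overlap. Of those that rose, cldna and krt96 reached 8.45 only with setb MO1. The part of epidermal content in these results was not tested.

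Among other secreted or membrane-bound proteases, 9 of 25 measured genes of a list of 50 rose and 5 fell, with a median of 0.10. These were 36% and 20%, against 23.9% and 20.8% of all genes. The dipeptidyl peptidase gene dpp4 (0.95 ± 0.07), the angiotensin-converting enzyme gene ace (0.77 ± 0.09) and the clotting factor gene f9b (0.54 ± 0.08) had the smallest p-values among those that rose. The complement-activating protease gene masp1 (−1.22 ± 0.09), the proprotein convertase gene furinb (−0.63 ± 0.08) and the carboxypeptidase gene cpe (−0.40 ± 0.07) led those that fell. Of these genes, dpp4 and f9b reached 8.45 only with setb MO1, and masp1 only in controls. The filter may have favoured these 3 directions. With that limit, masp1 was lower and serping1, whose mammalian product inhibits MASP proteases, was higher. The plasminogen gene plg fell (−0.35 ± 0.09, named after its value was seen) while the plasmin inhibitor gene serpinf2b rose.

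Markers of further tissues were also followed. Of 4 measured hatching gland genes of 6 listed, 3 rose, led by he1.1 (1.03 ± 0.07) and cd63 (0.38 ± 0.07), and their summed linear intensity was 6255 to 6462 in control and 7788 to 8492 in setb MO1 arrays. Of 6 cartilage and bone genes 2 fell, col9a1a (−0.93 ± 0.14) and sox9a (−0.43 ± 0.07). Of 6 blood vessel genes tie1 rose (0.28 ± 0.07) and fli1 fell (−0.31 ± 0.10). The increase was lost without control replicate 2 or setb MO1 replicate 3, and no vessel gene fell without any 1 of the setb MO1 arrays. The single measured marker of the exocrine pancreas, cpa5, fell (−0.69 ± 0.11). Shares called higher and lower were 75% and 0 for hatching gland, and 0 and 33.3% for cartilage and bone. For blood vessels they were 16.7% and 16.7%, against 23.9% and 20.8% of all genes. As col9a1a reached 8.45 only in controls, the filter may have favoured its decrease.

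**Figure D5:**
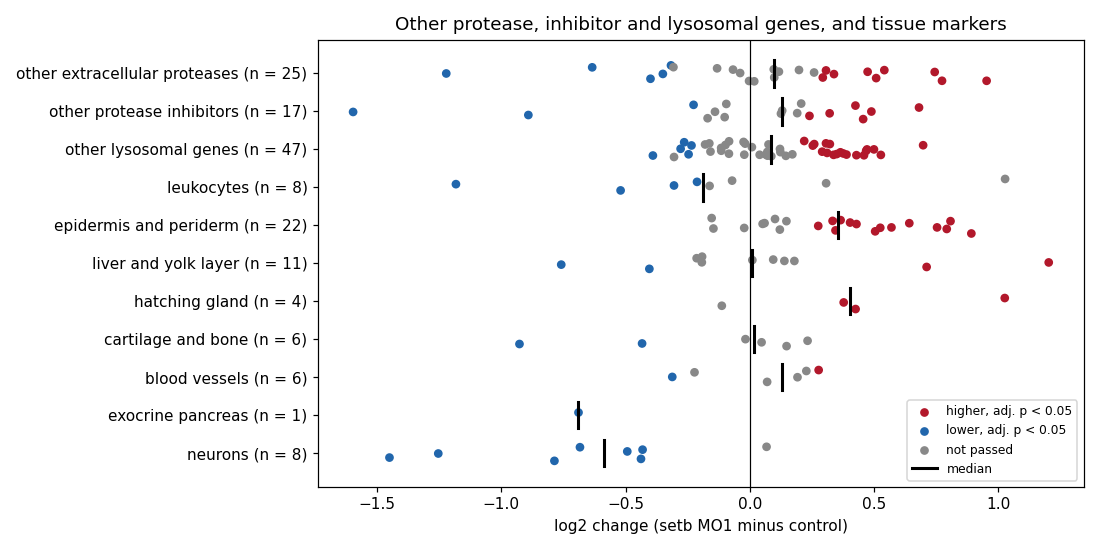
Log2 change (horizontal axis, setb MO1 minus control) of each measured gene of the other protease, inhibitor and lysosomal lists and of the tissue markers (vertical axis). Each point is a gene, shifted vertically at random within its list, colours mark the calls and black bars the medians. The medians are 0.09 for lysosomal genes, 0.36 for epidermis and −0.59 for neurons.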

How the data were processed

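Expression was measured on 6 Affymetrix arrays. The authors deposited log2 intensities of 15726 probe sets made with RMA, per the submitters' processing notes (version not given in the sources used here). RMA corrects background, quantile normalises arrays and summarises probes. Array medians were 9.47 to 9.49, and every probe set reached 8.45 in at least 1 array, so dim ones had been removed by a filter not given in the sources used here. No detection calls were used, and the number of arrays limits precision.

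Genes were named from the platform annotation (11738 probe sets with 1 symbol, 413 with several, 3575 with none), ignoring letter case, and stood by the probe set with the highest mean. Of the members 65 matched RefSeq by Entrez identifier. The 4 written in capitals (TIMP4, ADAM22, ADAMTS14 and ADAMTSL5) did not, so that their names rest on the array's annotation alone. Limma 3.58.1 in R 4.3.3 (lmFit, eBayes) was fitted on all probe sets, two-sided, with Benjamini-Hochberg adjustment over 11304 genes at 0.05. In data simulated with independent normal noise and 200 of 11304 genes changed, it recovered 69% of 1.5-fold and 93% of 2-fold changes. Of the calls in the simulated data, 5.26% were false. In the real data 44.7% of genes were called, so that these rates need not hold there.

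Members and lists were chosen with earlier results of these data known. Every member could be named. Arrays are given singly for called members of at least 1.5-fold and up to 2 per class with the smallest p, and for further members chosen after their values were seen. From each other list up to 3 genes per direction, and from marker lists up to 2, were named by smallest p. Further genes of these lists were named after their values were seen. The test of paralog ratios was added after seeing the data. Alternatives were normalizations, level filters, priors, array weights, a replicate block, thresholds, probe set choices and leaving out each array. Same-numbered arrays deviated together in replicate 3 (r = 0.33) but not in 1 (−0.01) or 2 (−0.32), so the numbers were not taken to pair the samples. The deviations are from means of 3 arrays. These correlations therefore depend on each other and cannot exclude a pairing by number. Across numbers, control replicate 1 deviated with setb MO1 replicate 2 (r = 0.38) and control replicate 2 with setb MO1 replicate 1 (0.25). A pairing in another order was therefore not excluded, was not tested, and is used in no fit. Sequences of the members were not used here.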

Additional observations from a re-analysis of the deposited data

How the results depend on the processing

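Of the 47 called members, 34 kept their call and direction under every alternative that tested them other than the stricter threshold, 8 lost it only when an array was left out and 5 (adamts10, ctsf, mmp11a, mmp14b and serpinb1l3) also under another setting. No called member changed sign. The members that rose numbered 28 to 37 without single arrays and those that fell 6 to 11, with 6 without setb MO1 replicate 2. Over all genes, 1833 to 2697 rose and 1690 to 2317 fell without single arrays, both lowest without control replicate 2. With all arrays these counts were 2702 and 2351, so that calls were lost over all genes too. With filters on level, fewer genes were tested: above the 30th percentile 5 of 43 members fell, and above the median 21 of 31 rose and 4 fell. At a threshold of 0.01, 6 members fell and adamts18 (adjusted p = 0.0129), otherwise stable, was lost. Among all genes 1395 rose and 1141 fell above the median level, and 1586 and 1454 at 0.01. With array weights, which rested on control replicate 2 (weight 58.9 against 0.207 to 0.803) in an estimate that did not converge, 4173 genes rose, and 14 further members were called. Of the members not called, adam10a passed under 7 settings other than leaving out an array. The replicate number as a block, used although the numbers were not shown to pair the samples, gave 36 members higher and 8 lower. Over all genes it gave 2569 higher and 2220 lower. It lost 4 calls and gained serpinh1b, and it gave 7 differing paralog pairs. Signs turned only in values that were not called: mmp25b with array weights (0.0039), and, over the fits without single arrays, ctsk (−0.037 to 0.083), mmp25b (−0.034 to 0.011), serpina1 (−0.12 to 1.02) and the copy differences of serpinh1 (−0.44 to 0.072) and spint1 (−0.18 to 0.15). The cause was not tested. Paralog pairs that changed differently numbered 5 to 7 without single arrays. Counting only symbols in lower case gave 34 members higher and 10 lower of 65 (52.3% and 15.4%, against 23.9% and 20.8% of all genes). That setting and the estimate of the spread from genes alone were chosen after seeing the data.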
